A study of Mus musculus with 1 sample.

Results

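Complement is a set of plasma and membrane proteins that tag cells, debris and microbes and, at its end, can pierce membranes. The 38 genes described here encode its components, receptors and regulators. They were picked by symbol out of the 23282 rows of 1 expression table, with earlier results of these data known. All 38 had a row, and each symbol occurred once. The genes were placed in 6 role groups, namely the classical, lectin and alternative pathways, the terminal pathway, the receptors and the regulators.

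The cells were mixed glia from the ventral midbrain (VM) of outbred ICR(CD-1) mouse pups, labelled as 5 days old, grown in serum-containing medium and replated on a coated surface. How many pups contributed was not stated. They formed the control of a study on inhibition of the kinase SGK1 with GSK650394, and received vehicle (DMSO) according to the table's own column name. No genetic modification is named in the labels. The data analysed here were 1 control RNA-seq library, so no contrast between groups was made, no value carries an error between cultures, and no difference below has a replicate check. Glia given the inhibitor were not analysed here.

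The classical, lectin and alternative routes start complement in the textbook scheme, and they meet at C3. In the classical route C1q, built from A, B and C chains, binds its target and switches on the proteases C1r and C1s, which cut C4 and C2. In the lectin route collectins or ficolins bind sugars and the MASP proteases make the same cuts, while in the alternative route factor B and factor D amplify C3 that is already deposited and properdin steadies the enzyme. In the brain, microglia are the known source of C1q, and C1q and C3 are known for tagging synapses that microglia then remove.

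The highest members were the C1q genes. Values are normalised read counts, a scale set before deposition. C1qa was at 32619, C1qc at 26159 and C1qb at 19173. Colec12 at 11982, C3 at 11519 and C3ar1 at 10876 followed. At the other end, Cfd, Mbl1, C4bp, C8a, C8b and C9 were listed at 0. The members thus ran from rank 68 of the table, held by C1qa, down to genes at 0.

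Regulatory sequence is shown for the 4 highest members with a single start in the RefSeq promoter table (GRCm38.p6). Each run covers 250 bases before to 50 bases after the annotated start, is written in the direction of transcription, and carries in capitals each match to 6 motifs. The genes lie on the minus strand, C1qc at chr4:136892865-136893164, C1qb at chr4:136886151-136886450, C3 at chr17:57228087-57228386 and C3ar1 at chr6:122856108-122856407.
C1qc: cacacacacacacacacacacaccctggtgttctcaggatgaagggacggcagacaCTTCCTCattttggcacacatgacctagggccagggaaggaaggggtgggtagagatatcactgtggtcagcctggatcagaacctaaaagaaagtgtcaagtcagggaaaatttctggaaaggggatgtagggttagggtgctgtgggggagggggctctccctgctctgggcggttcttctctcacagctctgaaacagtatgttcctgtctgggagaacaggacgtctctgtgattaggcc
C1qb: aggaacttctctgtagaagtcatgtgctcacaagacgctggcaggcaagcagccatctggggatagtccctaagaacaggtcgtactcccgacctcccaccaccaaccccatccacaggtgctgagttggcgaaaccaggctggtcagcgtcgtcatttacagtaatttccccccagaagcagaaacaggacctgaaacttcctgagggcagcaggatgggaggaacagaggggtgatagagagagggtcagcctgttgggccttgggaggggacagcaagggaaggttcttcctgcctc
C3: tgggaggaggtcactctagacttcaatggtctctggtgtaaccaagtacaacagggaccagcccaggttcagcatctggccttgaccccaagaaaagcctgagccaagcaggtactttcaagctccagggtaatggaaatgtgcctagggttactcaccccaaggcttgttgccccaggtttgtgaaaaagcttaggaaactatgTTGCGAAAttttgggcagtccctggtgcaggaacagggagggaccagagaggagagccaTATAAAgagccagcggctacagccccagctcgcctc
C3ar1: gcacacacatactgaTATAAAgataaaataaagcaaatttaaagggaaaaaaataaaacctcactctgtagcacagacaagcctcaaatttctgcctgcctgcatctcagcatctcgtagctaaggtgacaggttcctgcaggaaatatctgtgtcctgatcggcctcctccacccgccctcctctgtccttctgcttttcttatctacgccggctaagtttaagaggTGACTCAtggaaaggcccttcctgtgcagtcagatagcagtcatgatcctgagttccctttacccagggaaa

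The motifs were a PU.1 core GAGGAAG, a C/EBP pattern TTNNGCAA, an NF-kB pattern GGANNTTCC, an AP-1 pattern TGANTCA, a GAS pattern TTCNNNGAA and the TATA box TATAAA, each searched on both strands. PU.1 is the lineage factor of myeloid cells. In C1qc the capitals mark the PU.1 core on the reverse strand, beginning at position -194 with the annotated start as 0, and C1qb held no match. In C3 they mark a C/EBP pattern on the reverse strand at -45 and a TATA box at 14. In C3ar1 they mark a TATA box at -235 and an AP-1 pattern at -22. All positions count from the RefSeq start. In GENCODE release M21 C1qc extends to 136893065, inside the window and upstream of that start, so its -194 depends on the annotation.

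Of all 32851 promoters in the table, 13.6% held the PU.1 core, 10.8% the C/EBP pattern, 4.26% the NF-kB pattern, 7.81% the AP-1 pattern, 8.30% the GAS pattern and 13.6% the TATA box. Among the 31 promoters of the 28 matched members, 2 held the PU.1 core, 5 the C/EBP pattern, 2 the NF-kB pattern, 3 the AP-1 pattern, 5 the GAS pattern and 4 the TATA box. The 2 promoters with the NF-kB pattern both belonged to 1 gene, C1s1. C1qa, C2, C4b, Cd93, Cfb, Cfi, Clu, Colec12, Masp1 and Serping1 were not matched. These matches describe letters in a window and were not tested for binding.

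Most members were detected, and their shares lay farthest from those of all rows at the top of the scale. A value of 10 or more was reached by 29 of the 38 genes (76.3%), against 67.2% of all rows. A value of 1000 or more was reached by 12 of 38, against 21.5% of all rows, and 10000 or more by 6 of 38, against 1.64%. The median over the members was 131, close to the median of 119 over all rows. Together the members held 0.509% of the sum of all values, which was 27569507, and the C1q genes alone held 55.5% of the members' sum.

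**Figure D1:**
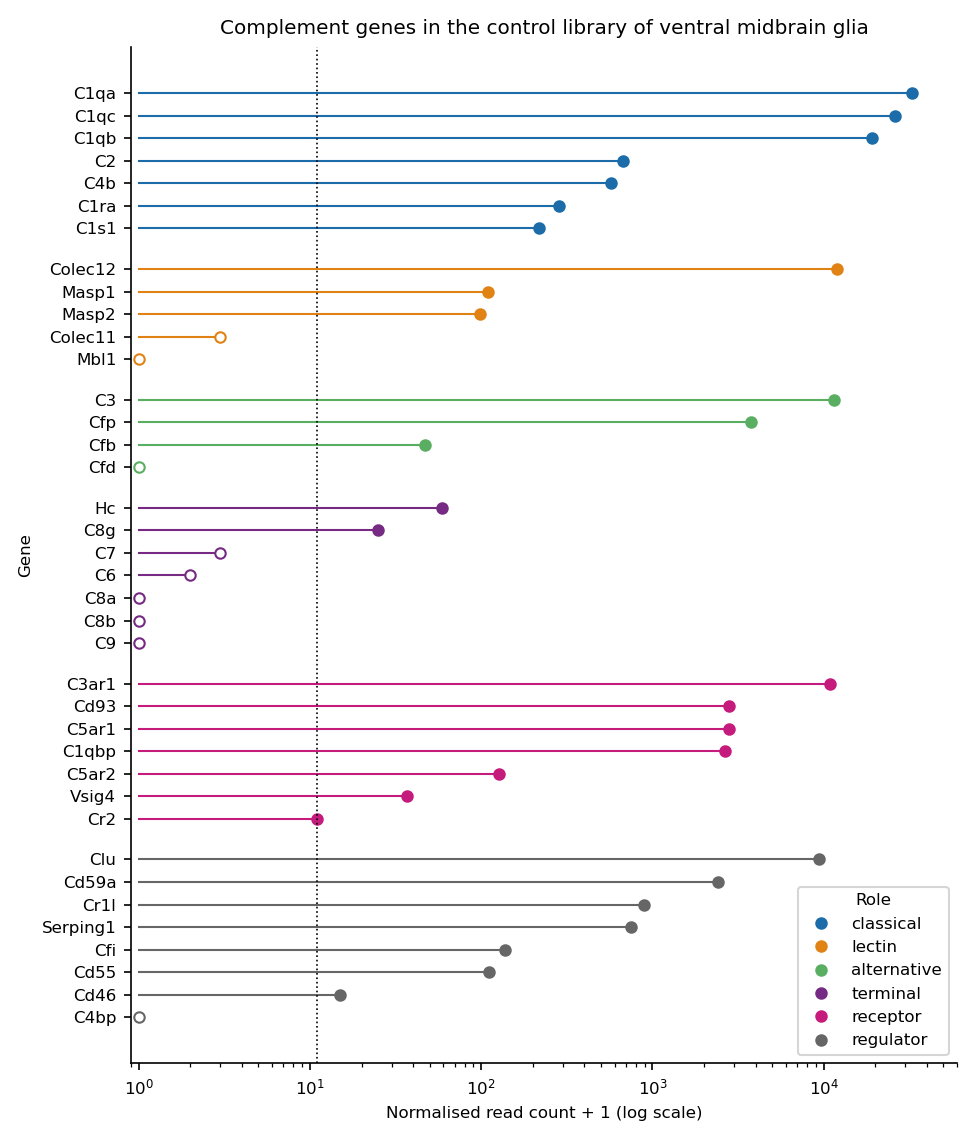
Normalised read count plus 1 (log axis) of each of the 38 genes in the control library, coloured by role, with open circles for values under 10 and a dotted line at that minimum. The C1q genes stand between 19173 and 32619, and C6, C7, C8a, C8b and C9 between 0 and 2.

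**Figure D2:**
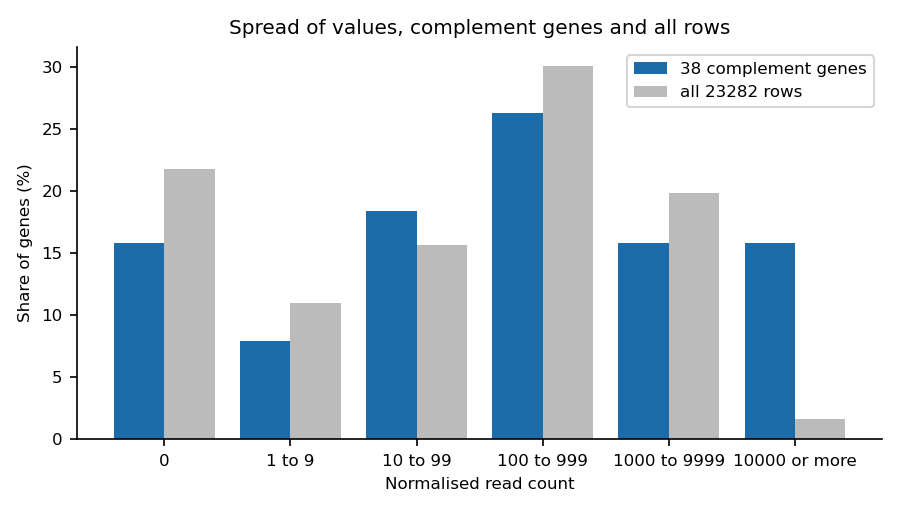
Share of genes (%) in each range of normalised read count, for the 38 complement genes (blue) and all 23282 rows (grey). The bars differ most at 10000 or more, which held 15.8% of the complement genes and 1.64% of all rows.

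Read counts grow with transcript length, so the order and sums of undivided values describe the table, and ratios between genes were taken after division by the length of annotated exons (normalised read count per kb, GENCODE release M21, GRCm38). On that scale C1qa was at 31364, C1qb at 17622 and C1qc at 13547, and even C1qc was above 99.6% of the rows with a known length. The fourth member in order was Clu at 2740. A wide gap therefore separated the C1q chains from every other member on this scale. As deposited the gap was narrower, from C1qb at 19173 to Colec12 at 11982. Per kb of coding sequence the fourth member was C3ar1 at 7600, below C1qb at 25261. Per kb the C1q genes made up 79.7% of the members' sum.

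The C1q genes lie side by side on the minus strand of chromosome 4, within 18.7 kb. In chromosomal order they are C1qb (136880129 to 136886187), C1qc (136889804 to 136893065) and C1qa (136895917 to 136898803). None of their transcripts shared a stretch of 50 bases with a transcript of another gene. C1qa exceeded C1qb by 1.78-fold per kb. Whether C1qc stood below or above C1qb depended on the length used. The log2 ratio of C1qc to C1qb was -0.38 per kb of all annotated exons, which count 1.93 kb for C1qc, and 0.30 per kb of the longest transcript of 1.20 kb.

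The proteases that C1q carries were far lower than C1q itself. C1ra was at 283 and C1s1 at 216, or 94.9 and 69.0 per kb. C1qc exceeded C1ra by 143-fold per kb, and C1qb exceeded C1s1 by 255-fold. The protease pair was close to balance, with C1ra 1.38-fold above C1s1 per kb. Both have a near copy on the same chromosome, C1rb at 159 and C1s2 at 38. Of the 50-base stretches in C1ra transcripts 48.0% also occur in C1rb, and 21.9% of those in C1s1 occur in C1s2. Reads from such stretches cannot be assigned to a single gene with certainty.

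The substrates of C1s were intermediate. C4b, whose product binds covalently to targets, was at 574, and C2, the protease subunit of the classical C3 convertase, was at 672. Per kb these were 101 for C4b and 174 for C2, and C1qa exceeded C4b by 311-fold. C4a, a near copy of C4b on the same chromosome, was at 103, and 34.6% of the 50-base stretches of C4b also occur in it. C4b and C4a together came to 677.

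Colec12 held 98.3% of the summed value of the lectin group. This collectin is a membrane-bound scavenger receptor, and at 11982 (1373 per kb) it was the highest of the group. The soluble collectins were at or near nothing, with Mbl1 listed at 0 and Colec11 at 2. The proteases Masp1 and Masp2 were at 108 and 97, which are 11.0 and 29.3 per kb. Exons of Masp2 overlap those of Tardbp on the opposite strand over 1817 bases, and Tardbp was at 3153. The strand setting of the counting is not given in the sources used here, so reads of Masp2 and Tardbp cannot be told apart there.

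In the alternative route the central protein and its stabiliser were high and the amplifying enzymes were not. C3, which lies on chromosome 17 (57203970 to 57228136), was at 11519, above 98.7% of rows. Properdin (Cfp), the stabiliser, was at 3773. Factor B (Cfb), which supplies the protease of the alternative convertase, was at 46, and factor D (Cfd), which cuts factor B, was listed at 0. Per kb C3 and Cfp were nearly level at 2240 and 2173, while Cfb was at 16.3.

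C3 stood well above its classical counterpart. Per kb it exceeded C4b by 22.2-fold, which is 4.47 on the log2 scale, and the log2 ratio was 4.25 with C4b and C4a summed. C2 exceeded Cfb, its counterpart in the alternative convertase, by 10.7-fold per kb. C2 and Cfb are neighbours, and 73.0% of the 50-base stretches of Cfb also occur in an annotated read-through gene, Gm20547, as do 38.7% of those of C2. No row was listed for Gm20547.

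The terminal genes, whose products assemble the membrane attack complex, were the lowest group. C6 was at 1, C7 at 2, and C8a, C8b and C9 were listed at 0. These 5 genes summed to 3. Hc, which encodes C5, was at 58, or 9.26 per kb, and C8g, the gamma chain of C8, was at 24. Thus 2 of 7 terminal genes reached the minimum of 10, beside 67.2% of all rows, and the group median was 1, or 0.281 per kb.

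Receptors for the fragments of C3 and C5 were represented by C3ar1 and C5ar1. C3ar1, the receptor for C3a, was at 10876, above 98.5% of rows. C5ar1, the signalling receptor for C5a, was at 2799, and C5ar2, the second C5a receptor, was at 126. C3ar1 exceeded C5ar1 by 2.32-fold per kb. Among receptors for deposited C3 fragments, Cr2 was at 10, the minimum for detection, and Vsig4, a receptor of tissue macrophages, was at 36.

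The other receptor genes carry names from C1q binding but have other roles. Cd93, a membrane glycoprotein of endothelial and myeloid cells, was at 2815. C1qbp, mainly a mitochondrial matrix protein, was at 2657. Per kb C1qbp was at 940 and Cd93 at 422. All 7 receptor genes reached 10, beside 67.2% of all rows. The receptor median of 2657 lay above the alternative-pathway median of 1909.5 as deposited, but below it per kb, at 422 against 1095, and over detected members, at 2657 against 3773.

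Of the 8 regulators 7 reached 10, beside 67.2% of all rows, and their levels ranged widely. Clu, a secreted chaperone that also binds the terminal complex, was at 9419, or 2740 per kb. Cd59a, the membrane inhibitor of the attack complex, was at 2413, or 1332 per kb. Cr1l, the rodent membrane regulator of C3 convertases known as Crry, was at 894, and Serping1, the inhibitor of C1r, C1s and the MASPs, was at 751. C4bp, a soluble cofactor for C4b cleavage, was listed at 0.

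Low regulators included Cfi, Cd55 and Cd46. Cfi, the protease that inactivates C3b and C4b, was at 136. Cd55, which speeds convertase decay, was at 110. Cd46, a cofactor that in mice is largely confined to testis, was at 14, and its exons overlap A330023F24Rik on the opposite strand, which was at 11. Among membrane regulators Cd59a exceeded Cd55 by 58.8-fold per kb, and Cr1l exceeded Cd55 by 3.81-fold. The Cr1l ratio rose to 6.60-fold per kb of the longest transcript, since annotated exons of Cr1l add up to 10.3 kb and its longest transcript to 3.86 kb.

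Regulators were also compared with what they control. Serping1 exceeded C1s1 by 4.68-fold per kb. The log2 ratio of Cfi to C3 was -5.19 per kb.

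**Figure D3:**
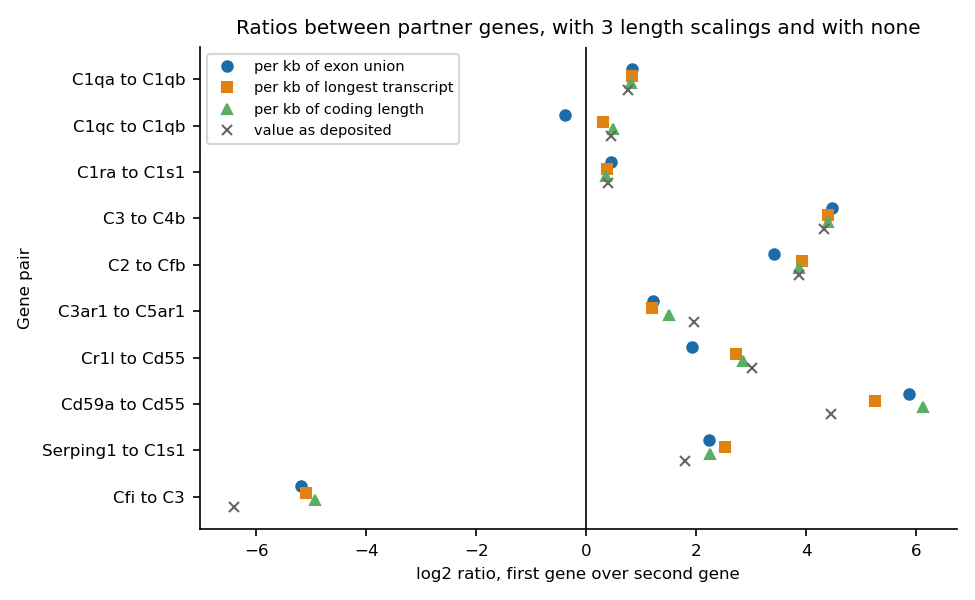
Log2 ratio of the first to the second gene of 10 partner pairs, per kb of all exons (circles), of the longest transcript (squares) or of coding sequence (triangles), and as deposited (crosses), with a line at 0. C1qc to C1qb is the pair that crosses the line, between -0.38 and 0.49.

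Many complement genes lie near each other, and in some neighbourhoods the levels differed widely. With gaps of up to 200 kb allowed, the 38 members and the other complement genes examined formed 12 neighbourhoods that held 22 of the members. Genes outside complement that lie within these gaps were not considered, and no share for other gene sets was computed. All 3 genes of the C1q neighbourhood were high, C8a and C8b were both at 0, and C6 and C7 were at 1 and 2. In other places neighbours stood apart. On chromosome 1 Cr1l at 86.4 per kb lay between Cd46 at 1.84 and Cr2 at 1.23 per kb. On chromosome 7 C5ar1 at 1089 per kb lay next to C5ar2 at 35.4 per kb. In the class III region on chromosome 17, C2 at 174 and C4b at 101 per kb flanked C4a at 16.6 and Cfb at 16.3 per kb.

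**Figure D4:**
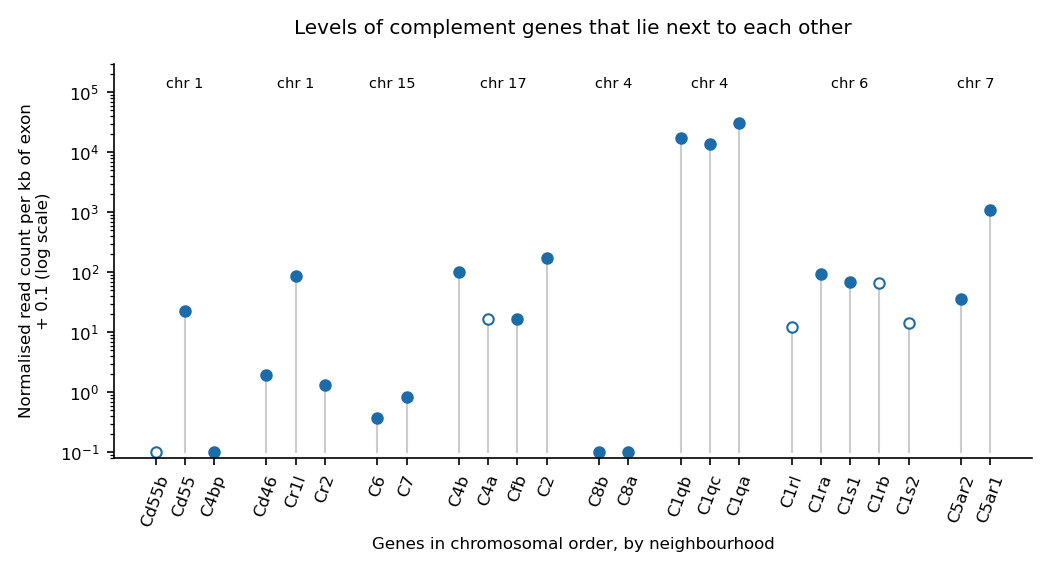
Normalised read count per kb of exon plus 0.1 (log axis) for the neighbourhoods with at least 2 of the 38 genes, in chromosomal order, with open circles for other complement genes. The 3 C1q genes lie between 13547 and 31364, whereas Cr1l at 86.4 sits between Cd46 at 1.84 and Cr2 at 1.23.

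A further 32 genes of the system were examined, some only loosely tied to it. A row was found for 31, and 20 of these reached 10, again beside 67.2% of all rows. Their median was 38. Among subunits of the phagocytic receptors for C3 fragments, Itgam was at 23713 and Itgb2 at 16418, above 99.5% and 99.2% of rows. They pair as CR3. Itgax, the CR4 partner of Itgb2, was lower at 772, above 74.0% of rows. Exons of Itgam overlap those of Gm49368 on the same strand over 3450 bases. Per kb Itgb2 was at 5379, Itgam at 4720 and Itgax at 161.

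The remaining recognition genes were mostly low. Ficolin A (Fcna) was at 359 and the pentraxin Ptx3 at 558, whereas Mbl2 was at 1, Crp at 2, and Fcnb and Colec10 were listed at 0. Calr, a chaperone of the endoplasmic reticulum that can also bind C1q, was at 72878. Regulators of the CSMD family, known from neurons, were at 59 for Csmd1, 38 for Csmd2 and 9 for Csmd3. The second copies Cd59b and Cd55b were at 12 and 0.

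Marker lists of cell types were read beside the share of all rows that reached 10, which was 67.2%. All 10 microglial markers were detected, with Tmem119 lowest at 984 and Csf1r at 31413, as were all 10 astrocyte markers, from S100b at 604 to Gfap at 17222. All 8 mesenchymal markers were also detected, from Lum at 455 to Fn1 at 95749. Of 7 endothelial markers 5 reached 10 (71.4%), a share near that of all rows, with Flt1 at 2427 and the defining Pecam1 and Cdh5 at 33 and 43. Tek was listed at 0.

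Markers of hepatocytes, the main source of plasma complement, and of B cells, which carry Cr2, were low. Of 7 hepatocyte markers 2 reached 10, and Alb, Fgb and Fga were listed at 0. Serpina1a at 707 was the exception. Of 5 B-cell markers Ms4a1 reached 10, at 16, and Cd79b and Pax5 were listed at 0. Of 5 neutrophil markers 4 had a row and 2 reached 10, S100a8 at 129 and Mpo at 11, with Elane at 0. Of 5 neuronal markers 4 reached 10, with Stmn2 at 3802 and Slc17a6 at 0.

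Against the microglial list, C1q was at the top. Per kb C1qa was higher than all 10 microglial markers, among them Cd68 at 21928. C1qb and C1qc were each higher than 8 of 10. C3ar1 was higher than 5 of the 10, C3 and Cfp than 3 and C5ar1 than 2. In a bulk sample many cells with little RNA of a gene and few cells with much cannot be told apart, and the cell type behind each member was not measured.

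**Figure D5:**
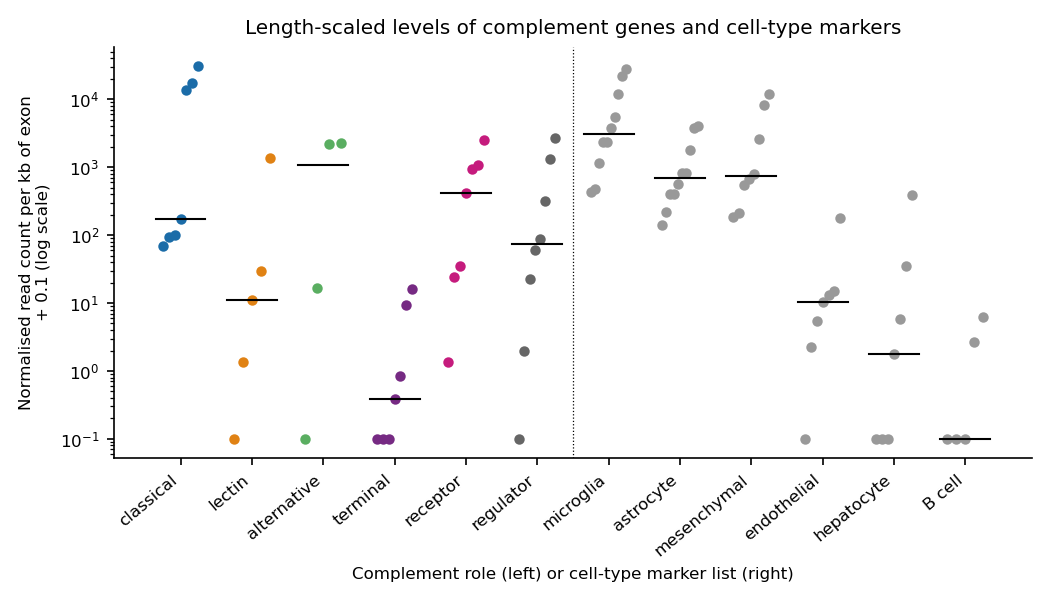
Normalised read count per kb of exon plus 0.1 (log axis) for the 6 complement roles (left of the dotted line) and for cell-type marker lists (right), with a point for each gene and a bar at the list median. The C1q points reach the top of the microglial list, whose median was 3090, and the terminal group has the lowest median of the roles, 0.281.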

How the data were processed

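The data were 1 RNA-seq library of control VM-derived mixed glia. Total RNA (Trizol) went into a SMARTer mRNA library. The study's methods name STAR for mapping to GRCm38/mm10 and HTSeq-count on RefSeq exons, whereas the submitters' processing notes name TopHat, edgeR and mm10. The deposited values are whole numbers that the authors call normalised read counts, and they were treated as a score, since the normalisation, strand setting and handling of multi-mapped reads are not given in the sources used here. Read depth is therefore unknown and no counting interval is given.

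Detection meant a value of 10 or more. Exon, longest-transcript and coding lengths, coordinates and overlaps came from GENCODE release M21 (GRCm38), matched by symbol for 22132 of 23282 rows (95.1%). This is not the annotation the authors counted on. Shared 50-base stretches were counted over all annotated transcripts, both strands. All members, the other complement genes and the marker lists were fixed as named genes, and some of these are not reported here. Members and lists were chosen with earlier results of these data known. Medians and counts describe this library, and no test was made. Functions were tested on small inputs with known answers. Python 3.11.15, numpy 2.4.6, pandas 2.3.3 and matplotlib 3.10.9 were used.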

Additional observations from a re-analysis of the deposited data

How the results depend on the processing

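With 1 library, no replicate could be left out and no spread between cultures could be set against any shift. Minima of 1, 3 and 100 gave 32, 29 and 22 detected members of 38, against 29 at the minimum of 10. The minimum of 10 was reached by 67.2% of all rows, and 100 or more by 12015 of 23282 rows. A value of 0, below the minimum of 1, was listed for 21.8% of all rows and 15.8% of members. The share of all rows at 3 or more was not computed. The members' share of the sum was 0.522% without Rn45s and 0.588% without the 10 highest rows. The members' median was 672 over detected members and 48.3 per kb. Per kb the role medians were 174 (classical), 11.0 (lectin), 1095 (alternative), 0.281 (terminal), 422 (receptor) and 73.8 (regulator), so the alternative group passed the receptor group. Over detected members they were 108 (lectin), 3773 (alternative), 41 (terminal) and 751 (regulator), unchanged for the other groups, and only members under 10 were dropped. The C1q share of the members' sum was 79.7% per kb and 59.5% without Clu. Of 31 recomputed log2 ratios, 28 kept their sign. The exceptions were C1qc to C1qb at 0.45 as deposited, 0.30 per kb of the longest transcript and 0.49 per kb of coding sequence, where the denominator is the sole difference. The largest shift was 1.42, for Cd59a to Cd55 as deposited.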

Other observations

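Serpina1a, an antiprotease known from liver, was at 707 while the other 6 hepatocyte markers were between 0 and 19. It belongs to a family of near-identical genes that can share reads, so its value is uncertain. Read sharing was not tested for Serpina1a. Cd5l, a secreted macrophage protein, was at 156.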
